A study of Mus musculus with 1470 samples.

Results

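The immediate early response genes examined were Fos, Fosb, Jun, Junb, Egr1, Atf3, Ier2, Dusp1, Zfp36 and Nr4a1, taken as the rows of the expression table that carry these symbols. All 10 were found among the 14915 gene rows. They were followed across 1470 cells of the non-parenchymal fraction (NPCs) of the mouse liver, in which hepatocytes are depleted. Normal chow (ND) was fed to 3 of the donor mice and a high-fat diet (HFD) to the other 3. All 6 were male C57BL/6J mice without a genetic change. The diets ran for 9 weeks from an age of 5 weeks, and 60% of the energy of the HFD came from fat. Livers were perfused with EGTA and then with collagenase, hepatocytes were removed by low-speed spins, and live cells stained with antibodies were sorted singly into plates. Libraries were made by Smart-seq2, which reads along whole transcripts and counts no molecular identifiers. The collagenase step and the sort lie between the liver and the measurement, and no sample of liver RNA taken without them was analysed here. The mouse was the replicate in every comparison.

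Immediate early genes are genes whose transcription starts within minutes of a signal and does not wait for new protein. Kinase cascades reach factors already bound at their promoters, such as SRF with its ELK partners at CArG boxes and CREB at cAMP response elements, and the transcripts decay fast because of AU-rich elements. The products fall into a few roles. Fos, Fosb, Jun, Junb and Atf3 encode leucine zipper proteins that pair in the AP-1 and ATF factors, Egr1 encodes a zinc finger factor, and Nr4a1 (Nur77) encodes an orphan nuclear receptor needed for the Ly6c-low monocytes that patrol vessel walls. Dusp1 encodes a phosphatase that switches off p38, JNK and ERK kinases, Zfp36 (tristetraprolin) encodes a protein that binds AU-rich elements and speeds the decay of cytokine mRNAs, and Ier2 encodes a nuclear protein of less settled function. The same genes also respond when tissue is digested at warm temperature.

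For 8 of the 10 members a RefSeq promoter entry was at hand on GRCm38.p6, the assembly of mm10 to which the reads were aligned. None was at hand for Egr1 and Ier2, whose promoters were not searched. Entries run from 250 bases before to 50 bases after the start of the gene. They are shown 5′ to 3′ on the strand of the gene for Fos, Dusp1, Zfp36 and Nr4a1, the members on which the comparisons of monocyte- and neutrophil-like cells below turn, with the letters of the motifs searched in capitals. The window of Fos is chr12:85473640-85473939 on the plus strand, that of Dusp1 chr17:26508423-26508722 on the minus strand, that of Zfp36 chr7:28379179-28379478 on the minus strand and that of Nr4a1 chr15:101266596-101266895 on the plus strand. The entry of Nr4a1 starts inside the annotated gene (chromosome 15, 101253902 to 101274795), which has a start further upstream, whereas those of Fos (chromosome 12, 85473890 to 85477274), Dusp1 (chromosome 17, 26505591 to 26508472) and Zfp36 (chromosome 7, 28376784 to 28379228) lie at the outer start of the gene.
Fos: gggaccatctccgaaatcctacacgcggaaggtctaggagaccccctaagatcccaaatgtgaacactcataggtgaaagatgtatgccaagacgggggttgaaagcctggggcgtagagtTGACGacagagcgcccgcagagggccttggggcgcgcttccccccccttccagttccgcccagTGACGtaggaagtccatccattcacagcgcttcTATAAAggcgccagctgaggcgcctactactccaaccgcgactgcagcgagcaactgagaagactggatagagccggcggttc
Dusp1: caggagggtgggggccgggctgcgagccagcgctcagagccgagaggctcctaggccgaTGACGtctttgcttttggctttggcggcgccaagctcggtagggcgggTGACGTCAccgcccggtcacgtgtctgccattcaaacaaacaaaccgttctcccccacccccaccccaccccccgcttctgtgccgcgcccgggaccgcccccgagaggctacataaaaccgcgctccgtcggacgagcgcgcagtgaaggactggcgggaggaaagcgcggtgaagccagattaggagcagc
Zfp36: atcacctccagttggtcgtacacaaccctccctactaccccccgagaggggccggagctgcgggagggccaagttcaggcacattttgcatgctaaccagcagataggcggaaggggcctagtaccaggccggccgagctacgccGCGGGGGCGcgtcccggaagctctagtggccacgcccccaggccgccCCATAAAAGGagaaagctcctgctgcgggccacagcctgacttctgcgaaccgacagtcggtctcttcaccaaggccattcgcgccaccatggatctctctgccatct
Nr4a1: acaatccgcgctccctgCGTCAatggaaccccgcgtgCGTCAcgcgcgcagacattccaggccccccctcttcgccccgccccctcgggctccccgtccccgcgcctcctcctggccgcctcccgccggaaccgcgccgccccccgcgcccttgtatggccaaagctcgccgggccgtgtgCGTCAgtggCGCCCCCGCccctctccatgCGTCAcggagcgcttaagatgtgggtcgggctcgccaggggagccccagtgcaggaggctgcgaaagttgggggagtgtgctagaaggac
Both strands were searched, so a match on the other strand appears as its reverse complement. In Fos the capitals mark the core of the cAMP response element, TGACG, at 2 places and a TATA box, TATAAA. In Dusp1 they mark the complete cAMP response element, TGACGTCA, which holds a core on each strand, and 1 more core. In Zfp36 they mark the EGR site GCGNGGGCG and a CArG box, the binding site of SRF. In Nr4a1 they mark 4 cores of the cAMP response element and 1 EGR site.

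Over the 8 windows, the core TGACG was found in 6 (Fos, Fosb, Junb, Atf3, Dusp1 and Nr4a1), against 20.8% of all 32851 promoters of the same length. The complete element was found in Dusp1 (1.79% of all promoters), the TATA box in Fos and Junb (13.6%), the EGR site in Fosb, Zfp36 and Nr4a1 (5.55%) and the CArG box in Zfp36 (1.63%). The AP-1 site TGANTCA was in none of the 8 windows (7.81% of all). These are matches of letters in a short window and were given no test.

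The members differed widely in how many cells held their transcripts. Values are RPKM, reads per kilobase of transcript scaled to the mapped reads of the cell, so levels of different genes can be set side by side. A value of 10 RPKM or more was reached by Zfp36 in 52.7% of the 1470 cells, by Dusp1 in 35.7%, by Junb in 31.5% and by Ier2 in 31.2%. Nr4a1 reached it in 13.6% of cells, Jun in 12.8%, Fos in 10% and Egr1 in 8.57%. Atf3 reached it in 33 cells (2.24%) and Fosb in 7 cells (0.476%), so little can be said of these 2 genes. In the cell of median depth 10 RPKM stands for an estimated 1.87 to 4.64 reads, depending on the length of the gene, and a gene listed at 0 may have been missed. When present, the transcripts could be abundant, and the highest cell held 8339 RPKM of Dusp1, 7690 RPKM of Junb, 7684 RPKM of Fos and 7404 RPKM of Nr4a1.

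Cells were assigned to 10 classes from clusters formed without the members and named from marker genes, and each name is given as X-like. There were 449 endothelial-like, 247 B-like, 243 Kupffer-like, 57 erythroid-like, 47 NK-like, 40 monocyte- or macrophage-like, 38 hepatocyte-like, 23 plasmacytoid dendritic-like and 13 neutrophil-like cells, and T-like cells made up 21.3% of all. Every class had cells from all 6 mice. The median number of genes detected per cell ran from 1595.5 in HFD mouse 2 to 3163 in HFD mouse 3, and the median of estimated exon reads from 87159 in HFD mouse 2 to 197894 in HFD mouse 1. The cells of HFD mouse 2 are named by another scheme than those of the other mice, and whether they were processed apart is not stated. RNA of hepatocyte markers was also found outside the hepatocyte-like class, at a mean between 1.36 in HFD mouse 2 and 4.91 in HFD mouse 3 on the log2(RPKM + 1) scale. The mean over the 10 members was also lowest in HFD mouse 2 (1.32) and highest in HFD mouse 3 (2.18). The part of depth and of hepatocyte RNA in the levels of the members was not tested.

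**Figure D1:**
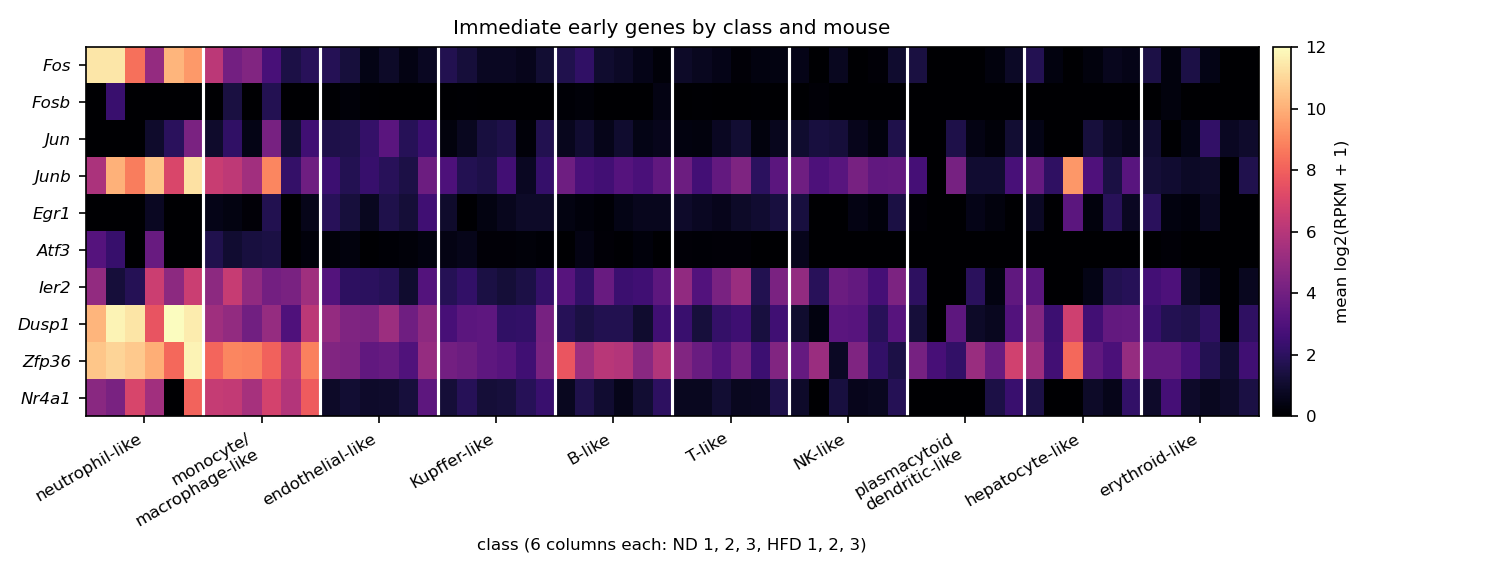
Mean log2(RPKM + 1) of each of the 10 members (rows) in each class and mouse (columns; 6 columns per class, ND mice 1, 2, 3 and then HFD mice 1, 2, 3), with colour from 0 (black) to 12 (pale). On average over the mice, Dusp1 (10.73) and Zfp36 (10.36) are brightest in neutrophil-like and Nr4a1 (6.51) in monocyte- or macrophage-like cells, with single columns that overlap between these classes for Zfp36 and Nr4a1, and Fosb and Atf3 are near 0 in most columns.

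The monocyte- or macrophage-like class, which also holds conventional dendritic-like cells, had the highest mean level of every member but Jun and Egr1 among the 9 classes large enough for a fit. Its 40 cells were led by S100a4, Alox5ap, Lyz2 and Plac8 and expressed 17 of the 18 monocyte markers in the table. Nr4a1 stood out, with a mean log2(RPKM + 1) of 6.43, 6.37 and 5.55 in ND mice 1, 2 and 3 and of 6.88, 5.95 and 7.87 in HFD mice 1, 2 and 3. In none of these mice did any of the other 8 classes of the fit reach the Nr4a1 level of this class, and the highest of their means, in Kupffer-like cells, was 1.66 ± 0.46 (SD, n = 6 mice). At 10 RPKM or more, Nr4a1 was found in 67.5% of the monocyte- or macrophage-like cells (95% Wilson interval 52 to 79.9, which covers counting error only) and in 17.3% of the Kupffer-like cells (13 to 22.5).

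Each class was then set against the unweighted mean of the other 8 classes within mice, with limma on 7926 genes and Benjamini-Hochberg adjustment over all of them. In the monocyte- or macrophage-like class 7 of the 8 members that passed the filter on low values were higher, where 35.1% of all genes tested were higher. Fosb and Atf3 did not pass this filter. Nr4a1 was higher by 5.29 ± 0.23 (SE) on the log2 scale (adjusted p = 3.0e-21, limma), Zfp36 by 4.11 ± 0.33 (adjusted p = 1.9e-13) and Junb by 3.07 ± 0.38 (adjusted p = 1.1e-08). Fos, the partner of Jun proteins in AP-1, was higher by 2.71 ± 0.26 (adjusted p = 4.4e-11, limma). Smaller differences were seen for Ier2 (2.53), Dusp1 (2.22) and Jun (0.98, adjusted p = 0.0015, limma). All but Jun were higher in 6 of 6 mice, and Jun was higher in 5 of 6. Egr1 was the exception, with a difference of -0.13 ± 0.21 (adjusted p = 0.63, limma), and it reached 10 RPKM in 1 of the 40 cells. The median difference of the 8 members was 2.62, and that of all genes tested was 0.34, in a class with a median of 3154 genes per cell. When RPKM values were averaged before the logarithm the median of all genes moved to -0.22 and that of the members, then 10 in the fit, was 2.31. With classes assigned cell by cell from the markers the median of the members, then 9 in the fit, was 1.49 and 7 were higher, but Dusp1 (0.87, adjusted p = 0.16, limma) no longer passed. Jun no longer passed when RPKM values were averaged first or when cells with few detected genes were left out (adjusted p = 0.11 in both, limma).

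Within this class 3 populations were separated. The 14 Ly6c-low monocyte-like cells were led by Ace, Ear2, S1pr5, Eno3 and Treml4, the 11 Ly6c-high monocyte-like cells by Icam1, Tnfaip2 and Ly6c2, and the 15 conventional dendritic-like cells by MHC class II genes such as H2-Eb1, with 9 of 12 dendritic markers detected but none among the 10 leading genes. In the Ly6c-low monocyte-like cells the mean log2(RPKM + 1) of Nr4a1 was 9.80, 7.29 and 6.34 in ND mice 1, 2 and 3 and 10.58, 8.84 and 10.74 in HFD mice 1, 2 and 3, each from 1 to 3 cells. Kupffer-like cells of the same mice, from 27 to 52 cells each, lay between 1.25 and 2.39. The difference of 7.27 ± 1.73 (SD, n = 6) was positive in 6 of 6 mice (exact sign-flip permutation test, two-sided p = 0.0312, the smallest that 6 mice allow). Single cells overlapped, with 0 RPKM in the lowest Ly6c-low monocyte-like cell and 10 RPKM or more in 17.3% of the Kupffer-like cells.

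Nr4a1 was also higher in the Ly6c-low monocyte-like cells than in the other cells of the class, by 3.78 ± 1.96 (SD, n = 6) and in 6 of 6 mice (exact sign-flip permutation test, p = 0.0312). With a pseudocount of 0.1 in place of 1 this difference was 4.07 and no longer passed (exact sign-flip permutation test, p = 0.0625). Its mean was 6.07 ± 2.20 in Ly6c-high monocyte-like and 4.03 ± 2.10 in conventional dendritic-like cells (SD, n = 6). It reached 10 RPKM in 12 of 14, 9 of 11 and 6 of 15 cells of these populations, respectively. Dusp1, the MAP kinase phosphatase, was also higher in the Ly6c-low monocyte-like cells, with 8.53, 7.16 and 4.51 in ND mice 1, 2 and 3 and 9.56, 3.31 and 6.78 in HFD mice 1, 2 and 3. Dusp1 was higher there than in the rest of the class by 2.76 ± 2.24 and than in Kupffer-like cells by 3.62 ± 2.57, in 6 of 6 mice in both comparisons (exact sign-flip permutation test, p = 0.0312 for each, n = 6). With a pseudocount of 0.1 the former difference no longer passed (3.01, exact sign-flip permutation test, p = 0.0938).

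Against the rest of the class 2 of 10 members were higher in all 6 mice, where 0.582% of all genes were, and 1 of 10, Fos, was lower in all 6, where 2.59% of all genes were. Fos had a mean of 2.31 in the Ly6c-low monocyte-like cells and of 4.12 in the rest of the class, a difference of -1.81 ± 1.4 (SD, n = 6; exact sign-flip permutation test, p = 0.0312), which no longer passed when RPKM values were averaged before the logarithm (-3.23, p = 0.125). Against Kupffer-like cells the same count was 2 of 10, where 2.38% of all genes were higher in all 6 mice. Zfp36 did not follow Nr4a1, with 9.48 ± 1.18 in Ly6c-high, 7.80 ± 3.07 in Ly6c-low monocyte-like and 7.26 ± 1.57 in conventional dendritic-like cells. Fosb and Atf3 were too sparse to compare. Fosb reached 10 RPKM in 2 of the 14 Ly6c-low monocyte-like cells and in no other cell of the class, and Atf3 in 3 of 14 Ly6c-low and 3 of 11 Ly6c-high monocyte-like cells and in 0 of 15 conventional dendritic-like cells.

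**Figure D2:**
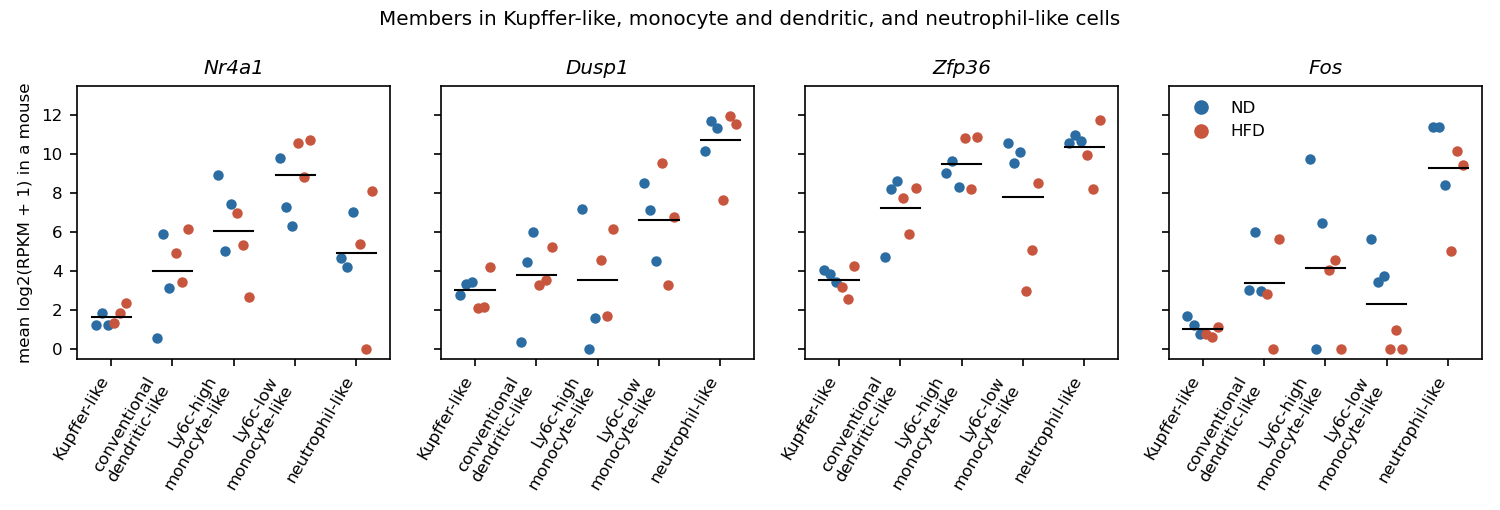
Mean log2(RPKM + 1) per mouse (points; blue ND, red HFD) of Nr4a1, Dusp1, Zfp36 and Fos in 5 populations, with the mean over 6 mice as a line. Nr4a1 is highest in Ly6c-low monocyte-like cells (mean 8.93) and lowest in Kupffer-like cells (1.66), while Dusp1, Zfp36 and Fos are highest in neutrophil-like cells.

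The highest mean levels of Fos, Dusp1, Zfp36 and Junb of any class were those of the 13 neutrophil-like cells, which came as 1 to 3 cells per mouse and were led by S100a8, S100a9, Retnlg and Csf3r. Because too few mice had 3 of these cells they were left out of the limma fit and compared within mice by sign flips, a choice made after their number was known. Fos and Il1b were also among the 10 leading genes of this cluster, although neither had been used to form it. Median values over the 13 cells were 3012 RPKM for Dusp1, 2045 for Junb, 1655 for Zfp36 and 1309 for Fos. Zfp36 was at 25.1 RPKM or more in all 13 cells, and Dusp1, Junb and Fos were at 10 RPKM or more in 12 of 13 each.

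Compared with all other cells of the same mice, Fos was higher by 8.36 ± 2.19, Dusp1 by 7.66 ± 1.84, Junb by 6.23 ± 2.13 and Zfp36 by 6.10 ± 0.69 on the log2 scale (SD, n = 6; exact sign-flip permutation test, p = 0.0312 for each). These 4 of 10 members were higher in 6 of 6 mice, where 0.986% of all genes were. Fos was at 11.40, 11.40 and 8.40 in ND mice 1, 2 and 3 and at 5.03, 10.14 and 9.46 in HFD mice 1, 2 and 3, and HFD mouse 1 was the lowest. Compared with the monocyte- or macrophage-like class, 3 of 10 members were higher in 6 of 6 mice, where 0.703% of all genes were. They were Dusp1, by 5.97 ± 2.22, Fos, by 5.83 ± 2.45, and Zfp36, by 2.19 ± 0.42.

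The other 6 members were not higher in all 6 mice. Nr4a1 varied from 0 in HFD mouse 2 to 8.11 in HFD mouse 3, and its difference from the monocyte- or macrophage-like class was -1.60 ± 2.53 (SD, n = 6; exact sign-flip permutation test, p = 0.19). Egr1 reached 10 RPKM in 0 of 13 cells, and differed from all other cells by -0.82 ± 0.42, lower in 6 of 6 mice, where 28.7% of all genes were. Jun reached 10 RPKM in 2 of the 13 cells, with at most 18.4 RPKM. The cells had a median of 2286 genes and of 85092 estimated reads, against 2480.5 and 122699 over all cells. Hepatocyte markers in them averaged 2.61 ± 1.15 (SD, n = 6), against 5.30 ± 1.26 in Kupffer-like cells. Outside the hepatocyte-like class, these markers averaged 1.36 in HFD mouse 2, the lowest, and 4.91 in HFD mouse 3, the highest. The part of depth and of hepatocyte RNA in the levels of neutrophil-like cells was not tested.

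In endothelial-like cells, the largest class, Dusp1, Jun and Egr1 were higher. Dusp1 was at 5.05, 4.45 and 4.32 in ND mice 1, 2 and 3 and at 5.26, 3.98 and 4.87 in HFD mice 1, 2 and 3, and it was found at 10 RPKM or more in 57.2% of the 449 cells (Wilson interval 52.6 to 61.7). Relative to the other classes Dusp1 was higher by 2.09 ± 0.30 (SE; adjusted p = 2.2e-07, limma). Jun was higher by 1.27 ± 0.25 (adjusted p = 8.1e-05, limma) and Egr1 by 0.98 ± 0.21 (adjusted p = 0.00022, limma). These 3 of 8 members were higher, each in 6 of 6 mice, where 14.4% of all genes tested were higher, and none was lower, where 8.74% were. Egr1 reached the level required for the fit in endothelial-like cells alone, so its place in the count rests on the class in which it was high. Without a filter on low values its difference was the same (adjusted p = 0.00021, limma). With RPKM values averaged before the logarithm the differences were 3.20 for Jun and 3.74 for Egr1, and both calls held in all 16 alternative settings. Endothelial-like cells had the highest mean of Egr1 (1.56 ± 0.62) and of Jun (2.17 ± 0.65) of the 10 classes (SD, n = 6). Neither was separated from the next class: Jun exceeded the monocyte- or macrophage-like class in 3 of 6 mice (exact sign-flip permutation test, p = 0.56) and Egr1 the hepatocyte-like class in 4 of 6 (p = 0.62, exact).

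The endothelial-like class was made of 2 clusters that differed in leading genes and in depth. The larger cluster was led by Gpr182, Dnase1l3 and Clec4g, and the smaller cluster by Ramp2, Fam167b and Gpihbp1. The larger cluster had a median of 88211 estimated reads per cell, and the smaller cluster a median of 237397. Dusp1 averaged 4.09 ± 0.39 in the former and 5.88 ± 1.09 in the latter, Zfp36 3.69 ± 0.73 and 4.73 ± 1.29, and Jun 1.81 ± 0.48 and 2.78 ± 0.73 (SD, n = 6), each lower in the shallower cluster in 6 of 6 mice. These were 3 of 10 members, where 13.6% of all genes were lower in all 6 mice. Egr1, Fos, Ier2 and Nr4a1 differed by at most 0.17 between the clusters. The part of depth in the differences of Dusp1, Zfp36 and Jun was not tested, nor was that of the kind of endothelial-like cell. The 2 Kupffer-like clusters, with medians of 62412 and 165295 estimated reads, differed by 0.45 or less in every member, and none of the 10 was higher or lower in the shallower cluster in all 6 mice, where 1.14% and 4.74% of all genes were, respectively.

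Among lymphocytes, Zfp36 was higher in B-like cells and Ier2 in T-like cells than in the other classes. In B-like cells Zfp36 ran from 4.72 in HFD mouse 2 to 7.66 in ND mouse 1 and was higher than in the other classes by 1.58 ± 0.33 (SE; adjusted p = 0.00043, limma), the 1 of 8 members that was higher, where 6.54% of all genes were. It was present at 10 RPKM or more in 72.5% of B-like cells (Wilson interval 66.6 to 77.7). Dusp1 and Nr4a1 were lower there, by -1.20 and -0.67 (adjusted p = 0.0032 and 0.048, limma), 2 of 8 members where 6.93% of all genes were lower. For this class and those below, the mean of the other classes includes the monocyte- or macrophage-like class, at 6.51 for Nr4a1 and 8.17 for Zfp36. Lower calls of such members are against a mean raised by that class, and differences without it were not computed. The mean of Nr4a1 in B-like cells (1.21) lay above those in T-like (0.95), NK-like (0.92) and plasmacytoid dendritic-like cells (0.66). In T-like cells Ier2 was at 4.93, 3.05 and 4.26 in ND mice 1, 2 and 3 and at 5.22, 1.70 and 4.31 in HFD mice 1, 2 and 3, and it was higher by 1.34 ± 0.35 (adjusted p = 0.0041, limma) in 5 of 6 mice. This was 1 of 8 members, where 15% of all genes were higher. Nr4a1, Zfp36 and Dusp1 were lower in T-like cells by -0.97, -0.88 and -0.83, 3 of 8 members where 7.56% of all genes were lower (adjusted p = 0.0018, 0.047 and 0.038, limma). The call of Dusp1 in T-like cells was lost in 9 of 16 alternative settings, and in 1 more, with RPKM values averaged before the logarithm, the difference was 0.25. The calls of Nr4a1 in B-like cells and of Zfp36 in T-like cells were lost in 13 and 10 of 16 alternative settings, respectively.

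NK-like cells were lower in Zfp36 (-1.24), Fos (-0.99) and Nr4a1 (-0.97; adjusted p = 0.011, 0.012 and 0.0055, limma), 3 of 8 members where 9.24% of all genes were lower. These calls were lost in 2, 3 and 4 of 15 alternative settings, respectively, and with RPKM values averaged first Fos differed by -3.08 and Nr4a1 by -2.99. No NK-like cell reached 10 RPKM of Fos, and 0 of 47 cells has a Wilson interval up to 7.56%. Plasmacytoid dendritic-like cells had the largest number of lower members of the 9 classes. They were lower in Dusp1 (-1.53), Junb (-1.13), Nr4a1 (-0.98), Jun (-0.76) and Egr1 (-0.69), 5 of 8 members where 7.97% of all genes were lower, and adjusted p ran from 0.00078 for Dusp1 to 0.045 for Junb (limma). The median difference of the 8 members was -0.79, in a class with a median of 3180 genes per cell. The 4 mice with 3 or more of these cells gave the fit, and each of the 5 members was lower in all 4. The calls of Junb and Jun were lost in 9 and 8 of 14 alternative settings, those of Nr4a1 and Egr1 in 5 each and that of Dusp1 in 2. With RPKM values averaged first, the differences of the 5 members ran from -3.79 for Dusp1 to -2.35 for Jun.

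Kupffer-like cells, the resident macrophages, were lower in Ier2 (-1.09) and Zfp36 (-1.06; adjusted p = 0.031 and 0.024, limma), 2 of 8 members where 6.27% of all genes were lower, and no member was higher, where 6.60% of all genes were. These calls were lost in 7 and 5 of 16 alternative settings, respectively. Erythroid-like cells were lower in Zfp36 (-2.17), Junb (-2.13), Ier2 (-1.50) and Dusp1 (-1.07), 4 of 8 members, where 48.6% of all genes were lower in a class with a median of 1819 genes per cell. The call of Zfp36 held in all 14 alternative settings, and those of Junb, Ier2 and Dusp1 were lost in 1 each. Over the settings Ier2 ran from -3.78 to -0.24 and Junb from -3.94 to -1.23. In hepatocyte-like cells none of the 8 members passed in either direction by limma, where 9.75% of all genes were higher and 18.8% lower. The largest difference was -0.95 for Ier2 (adjusted p = 0.089, limma). Members that did not pass are not thereby shown to be at the level of the other classes. In all, 31 of 72 combinations of a member and a class passed, 12 higher and 19 lower, where 28.1% of all tests of a gene in a class passed.

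The order of the classes was clear at the top for some members and not for others. For Fos, Dusp1 and Zfp36 the neutrophil-like class lay above the monocyte- or macrophage-like class in 6 of 6 mice, and for Fos and Zfp36 the latter lay above the next class, the B-like cells, in 6 of 6 mice (exact sign-flip permutation test, p = 0.0312 for each, n = 6). For Dusp1 the monocyte- or macrophage-like class (4.76 ± 1.11) and the endothelial-like class (4.65 ± 0.49) did not separate, with the former higher in 3 of 6 mice. For Ier2 the monocyte- or macrophage-like (4.97 ± 0.87), neutrophil-like (4.34 ± 2.30) and T-like cells (3.91 ± 1.32) overlapped. For Nr4a1 the monocyte- or macrophage-like class lay above the neutrophil-like class in 4 of 6 mice (exact sign-flip permutation test, p = 0.19).

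Of the variation of Nr4a1 over the 30 profiles of the 5 classes with at least 5 cells in every mouse, 92.2% lay between classes and 5.47% between mice. Zfp36 followed with 83.4% and Dusp1 with 78.4% between classes, then Ier2 (69.2%) and Fos (61.6%). The share between mice was largest for Jun (30%), Egr1 (24.8%) and Fos (20.7%). These shares describe the profiles and were not tested.

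**Figure D3:**
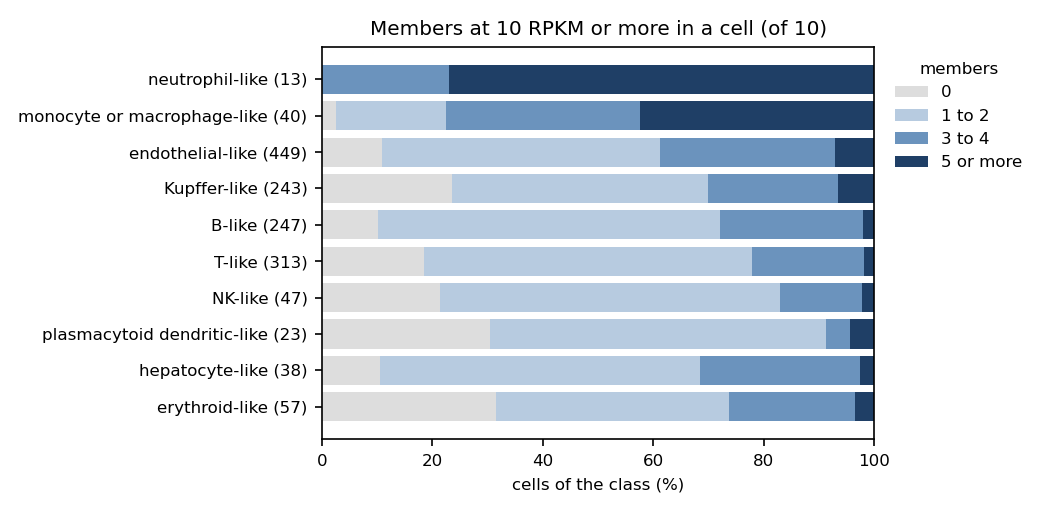
Share of the cells of each class (percent; number of cells in parentheses) with 0, 1 to 2, 3 to 4 and 5 or more of the 10 members at 10 RPKM or more. The bar of 5 or more members covers 76.9% of neutrophil-like and 42.5% of monocyte- or macrophage-like cells, and at most 7.13% of any other class.

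The number of members found in the same cell differed between classes. These counts were not set against those of unrelated genes. The median cell of all 1470 held 2 members at 10 RPKM or more, 15.6% of cells held none, and 91 cells (6.19%) held 5 or more. Of the neutrophil-like cells 10 of 13 (76.9%) held at least 5, and of the monocyte- or macrophage-like cells 17 of 40 (42.5%), with cells from each of the 6 mice in both classes. In endothelial-like cells the share was 7.13% (32 of 449), in Kupffer-like cells 6.58% (16 of 243) and in B-like cells 2.02% (5 of 247). Of the 16 Kupffer-like cells 14 came from ND mouse 1, HFD mouse 1 and HFD mouse 3, and none from HFD mouse 2 or ND mouse 2.

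Within a class and mouse the members varied together only weakly. Pearson correlations of log2(RPKM + 1) across cells were computed in each of 30 groups of 1 mouse and 1 class with at least 10 cells, 1334 cells in all, and averaged over groups. Cells of a group share a mouse and a class, and the mean of the 10 members itself correlated with the number of genes detected (mean r = 0.25). Between pairs of members mean r ran from 0.0056 for Atf3 and Ier2 to 0.17 for Fos and Ier2 and for Fosb and Nr4a1. In counts this sparse such values are a description only.

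Outside the members, the 10 genes that followed the mean of the members most closely within groups were Myadm (mean r = 0.19), Hes1, Rbm5, Nfkbia (0.18), Nrros, Hook3, Ep300, Malat1, Eif4e2 and Rgl2, out of 4680 genes ranked with a median of 0.041. Nfkbia encodes the inhibitor of NF-kB that is itself an early target of that factor. It was the 1 gene of the 10 that belonged to the lists of related genes described below, of which 50 were ranked. The mean level of the early feedback list followed the members with a mean r of 0.34 and that of other early transcription factors with 0.295. It was 0.21 for upstream genes, 0.21 for early cytokine genes, 0.14 for heat shock genes and -0.067 for hepatocyte markers. Means over many genes cannot be set against the median of single genes, and lists of unrelated genes were not computed.

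**Figure D4:**
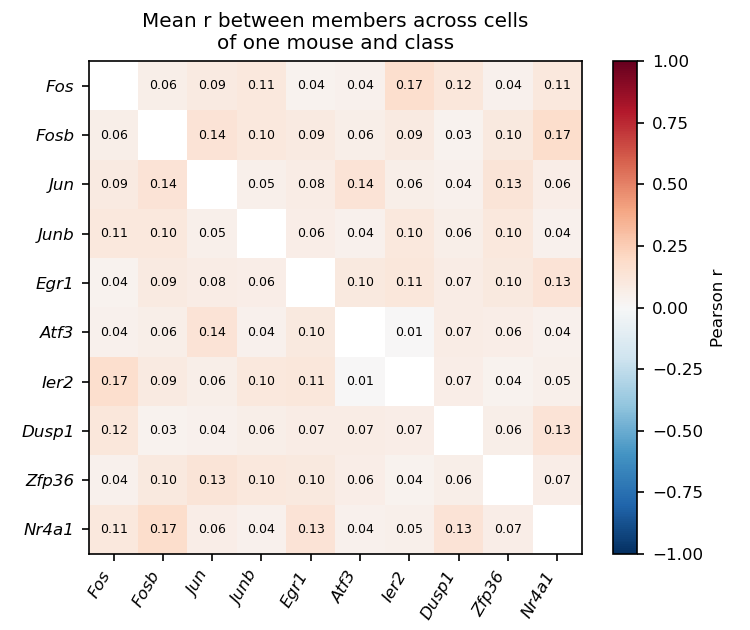
Mean Pearson r between pairs of members across the cells of 1 mouse and class, averaged over up to 30 groups, on a colour scale from -1 to 1. All pairs lie between 0.0056 and 0.17.

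Genes of the same response that are not members were taken from 5 lists and described by the same fits. Of 14 other early transcription factors tested, 7 were higher in the monocyte- or macrophage-like class, among them Cebpb (4.55), a factor of myeloid differentiation, Klf4 (2.29) and Klf6 (1.69), and none was lower. Of 22 early feedback and RNA decay genes 12 were higher and 1 lower (7.96% of all genes were lower), led by Mcl1 (3.72), a survival protein with short-lived mRNA, Nfkbia (2.82) and Nfkbiz (2.08). Of 8 early cytokine genes 4 were higher, with Il1b at 1.84, and of 16 genes of the kinases and factors upstream 11 were higher, with Mapkapk2, the kinase that inactivates Zfp36 protein, at 3.07. Heat shock and chaperone genes, another set that responds to stress of cells, had 4 of 12 higher and a median difference of 0.21, against 0.34 for all genes. The share of 35.1% of all genes applies to each of these counts of higher genes.

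In the Ly6c-low monocyte-like cells Klf4 was higher than in the rest of the class by 3.95 and Nfkbiz by 4.23, each in 6 of 6 mice, and these were 1 of 19 early transcription factors and 1 of 25 feedback genes, where 0.582% of all genes were higher. Cebpd (-1.62), Hspa8 (-2.49) and Icam1 (-2.70) were lower in 6 of 6 mice, where 2.59% of all genes were. In neutrophil-like cells 4 of 19 other early transcription factors were higher than in all other cells in 6 of 6 mice, where 0.986% of all genes were, among them Cebpb (6.32), Jund (5.45) and Klf6 (4.05), and 3 were lower. Mcl1 (5.01) and Btg1 (3.94) were 2 of the 3 higher of 25 feedback genes, of which 2 were lower. Il1b, at a difference of 10, was the 1 higher of 11 early cytokine genes, of which 3 were lower, and of 20 upstream genes 1 was higher and 5 were lower. None of 14 heat shock genes was higher in all 6 mice and 4 were lower, among them Hsp90ab1 (-3.35) and Hspa8 (-3.11), a share close to the 28.7% of all genes that were lower. The mean over the heat shock list was 1.24 ± 0.46 in neutrophil-like, 2.53 ± 0.55 in monocyte- or macrophage-like, 2.59 ± 0.91 in plasmacytoid dendritic-like and 1.96 ± 0.31 in Kupffer-like cells (SD, n = 6). It was 2.47 ± 0.35 in T-like, 2.34 ± 0.66 in NK-like and 2.12 ± 0.45 in hepatocyte-like cells. In B-like cells it was 2.04 ± 0.30, in endothelial-like cells 1.95 ± 0.22 and in erythroid-like cells 1.11 ± 0.47.

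In endothelial-like cells, 3 of 14 other early transcription factors were higher, with Klf2 (1.49), a factor induced by flow, and Klf10 (1.12), and 1 was lower. Of 22 feedback genes 6 were higher, led by Sgk1 (3.93) and Rhob (2.36), and 5 were lower, with Btg1 at -2.07. Of 12 heat shock genes 2 were higher and 2 lower. Of all genes 14.4% were higher and 8.74% lower in this class, so that the share of higher heat shock genes was near that of all genes. In plasmacytoid dendritic-like cells 9 of 22 feedback genes were higher, led by Sik1 (5.38) and Btg2 (3.30), and 3 were lower, while 5 of 12 heat shock genes were higher. Of all genes 32.1% were higher and 7.97% lower in this class.

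Diet was tested within the 5 classes with at least 5 cells in every mouse, 3 HFD against 3 ND mice, with limma on each class. None of the 30 tests of a member passed, where 0.00480% of all 20839 tests did, and 2 of the 30 had an unadjusted p under 0.05, against 3.36% of all tests. Both were Fos. In the monocyte- or macrophage-like class Fos was at 6.15, 4.06 and 4.49 in ND mice 1, 2 and 3 and at 2.77, 1.51 and 1.88 in HFD mice 1, 2 and 3. All HFD mice lay below all ND mice, with a difference of -2.85 ± 0.91 (SE; unadjusted p = 0.0046, adjusted p = 0.994, limma). In B-like cells Fos was at 1.64, 2.15 and 1.07 in the ND mice and at 0.86, 0.54 and 0.21 in the HFD mice, a difference of -1.09 ± 0.51 (SE; unadjusted p = 0.047, adjusted p = 0.998, limma).

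Fos in T-like cells, below the level required for the fit, was at 0.92, 0.70 and 0.55 in ND and at 0.17, 0.34 and 0.39 in HFD mice, again without overlap. The exact permutation test of 3 against 3 mice gave p = 0.1 in each of these 3 classes, the smallest it allows. Such a complete separation with lower values in HFD mice was seen for 1 of 10 members in each of these classes, where 5.19% of all genes in the monocyte- or macrophage-like class, 7.53% in B-like cells and 5.37% in T-like cells showed it. In endothelial-like and Kupffer-like cells the Fos values of the diets overlapped. In endothelial-like cells the member so separated was Fosb (4.83% of all genes), with means of 0.11 in ND and 0.0064 in HFD mice. The mice are the same in all 5 classes, so the classes are not independent tests of the diet.

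Egr1 in B-like cells was at 0.39, 0.26 and 0.14 in ND and at 0.49, 0.68 and 0.70 in HFD mice, without overlap but at a level where 3 of 247 cells reached 10 RPKM. It was the 1 of 10 members with all HFD mice above all ND mice in this class, where 0.943% of all genes showed this. Nr4a1 in endothelial-like cells was at 3.41 in HFD mouse 3 and between 0.93 and 1.35 in the other 5 mice, and the diets overlapped. In the monocyte- or macrophage-like class Nr4a1 was at 6.12 ± 0.49 in ND and at 6.90 ± 0.96 in HFD mice (SD, n = 3), a difference of 0.78 ± 0.89 (SE; adjusted p = 0.99, limma). Differences of the diet effect between classes were tested over 10 pairs of classes, and 0 of 70 tests of members passed by limma (0% of all 52549 tests), with 3 of 70 at an unadjusted p under 0.05, against 4.27% of all tests. None of the diet tests of the genes of the 5 lists passed by limma, and 7 of them (3.02%) had an unadjusted p under 0.05. With 3 mice per diet and few cells per profile, the SE of the diet difference of a member was 0.47 to 1.21 on the log2 scale, and tests that did not pass do not show that the diets had equal levels.

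**Figure D5:**
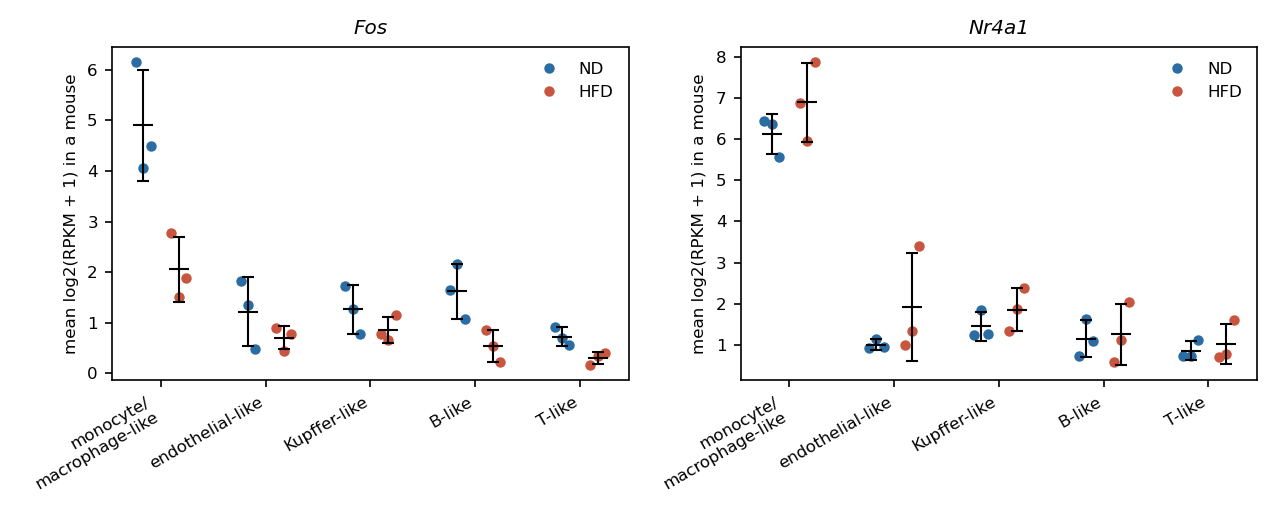
Mean log2(RPKM + 1) of Fos (left) and Nr4a1 (right) in each mouse (points; blue ND, red HFD) in the 5 classes tested, with mean and SD of 3 mice as bars. Fos in the monocyte- or macrophage-like class averages 4.90 in ND and 2.05 in HFD mice, and the Nr4a1 value of HFD mouse 3 in endothelial-like cells lies above those of the other 5 mice.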

How the data were processed

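Single NPCs of 3 ND and 3 HFD mice were profiled by Smart-seq2. The authors deposited RPKM values of 14915 gene rows in 1470 cells, computed with rpkmforgenes on RefSeq genes from uniquely mapped reads of 50 bases, aligned with STAR to mm10. Cells of low quality and doublets called by Scrublet had been removed before deposit. RPKM divides by transcript length, but at low depth a transcript can be missed, and without molecular identifiers amplified copies count as reads.

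Depth per cell was estimated from the low values, whose steps are whole reads. With the transcript lengths of 10078 genes, 61.8% of low values lay within 0.05 of a whole read, against 11.7% with shuffled lengths. Cells were clustered on 1000 variable genes and 20 principal components into 12 clusters, without the members and 95 related or stress genes. Clusters were named from marker lists of which at least 3 genes had to be detected, and naming cell by cell gave the same class for 82.2% of cells. The monocyte- or macrophage-like cells were clustered again into 3 populations.

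Means of log2(RPKM + 1) over at least 3 cells of a class and mouse were fitted in limma 3.58.1 (R 4.3.3) with terms for class and mouse, for 9 classes with 4 or more mice, over genes with a mean of at least 1 in at least 1 class. Diet was fitted within 5 classes with at least 5 cells in every mouse. Both used Benjamini-Hochberg adjustment over all genes and a threshold of 0.05. Single values were compared by exact sign flips within mice or exact permutation of mice (scipy 1.17.1), two-sided. The fits were tested on simulated data. Intervals are 95% Wilson intervals. All 10 members are described. There were 5 lists of related genes (other early transcription factors, early feedback and RNA decay genes, heat shock and chaperone genes, early cytokine genes, and upstream kinases and factors). Counts or up to 3 leading genes are given for the lists named in a comparison, and not every list is described in every class. The members and lists were chosen with earlier results of these data known. Array weights, the comparisons of neutrophil-like cells and those between clusters of a class were added after seeing the data. Alternatives covered the pseudocount, filters, scaling, averaging, class assignment, cells per profile and leaving out each mouse. Each of the value columns was matched to its mouse by its label.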

Additional observations from a re-analysis of the deposited data

Results flagged for a closer look

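In 50 groups of 6 mice, 1 for each member in the 5 classes with at least 5 cells in every mouse, 3 held a mouse whose distance from the nearest other mouse was above Dixon's 95% critical value for 6 values, as a ratio to the range. Chance gives about 1 in 20 such groups. Nr4a1 in endothelial-like cells was highest in HFD mouse 3, at 3.41, with a ratio of 0.832. Zfp36 in monocyte- or macrophage-like cells was lowest in HFD mouse 2, at 6.19, with a ratio of 0.654. Egr1 in the same class was highest in HFD mouse 1, at 1.72, with a ratio of 0.657, from 5 cells. HFD mouse 3 also had the highest mean of hepatocyte markers outside hepatocyte-like cells (4.91) and HFD mouse 2 the lowest (1.36) as well as the fewest genes per cell (a median of 1595.5). Their part in these values was not tested.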

How the results depend on the processing

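The count of 31 calls of a member in a class ran from 22 to 36 in all settings but 1. With at least 10 cells per profile it was 20, in a fit without the monocyte- or macrophage-like class, and leaving out a mouse gave 23 to 28. In that class 7 to 9 members were higher in all 15 settings that kept it, out of 8 to 10 in the fit. The count was 7 of 8 in the main fit and 7 of 9 with classes cell by cell. It was 8 of 10 with RPKM values averaged first and 9 of 10 without a filter on low values. The share of 35.1% of all genes that were higher is that of the main fit, and those of the other settings are not given. Of 468 single calls recomputed, 376 kept direction and call, 91 lost the call and 1 turned direction, Dusp1 in T-like cells, at 0.25 when RPKM values were averaged before the logarithm. The cause was not tested. Of the 31 calls, 10 held in every setting run. Nr4a1 in Ly6c-low monocyte-like cells exceeded Kupffer-like cells by 6.88 to 7.71 when 1 mouse was left out and by 6.88 with at least 2 cells per mouse. It exceeded the other cells of its class by 3.39 to 4.33 when 1 mouse was left out, by 3.61 with at least 2 cells per mouse and by 4.07 with log2(RPKM + 0.1). With RPKM values averaged before the logarithm these differences were 4.81 and 2.41, and both still passed. With 5 mice the exact sign-flip permutation test cannot go below p = 0.0625, so it could not be passed there. The share of cells with a member moved with the threshold in RPKM, between 60% and 82.5% for Nr4a1 in the monocyte- or macrophage-like class, 59.1% and 83% for Zfp36 in B-like cells and 42.1% and 72.2% for Dusp1 in endothelial-like cells. With the replicate number as a block the count of members called by diet stayed at 0, as did that between classes. Mice of the same number share only a number, and their pairing was not used. The 40 monocyte- or macrophage-like and 13 neutrophil-like cells limit the precision of their values.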
